A study of Mus musculus with 17 samples.

Results

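The 9 genes Procr, Thbd, Pros1, F3, Tfpi, F2r, Plat, Plau and Plaur belong to the protein C anticoagulant pathway, to the start of coagulation and to fibrinolysis. They were chosen by name, as the probe sets whose gene symbol on the array is 1 of these 9 symbols. This gave 13 probe sets among 22626 that are not controls, or 9 genes among 12393 that had a probe set naming 1 gene. The signals came from lungs of male mice, 1 Affymetrix MOE430A array per mouse and 17 mice in all, and are given on the log2 scale. Wild-type mice (C57BL/6J) received intravenous saline and were studied at 22 h (n = 4), or received 20 mg/kg of lipopolysaccharide (LPS, endotoxin of Escherichia coli O111:B4) and were studied at 7 h (n = 3) or 22 h (n = 3). NOS2-/- mice, which carry a congenital deficiency of the inducible nitric oxide synthase and for which the labels give no background strain, were studied 22 h after saline (n = 1), and 7 h (n = 3) and 22 h (n = 3) after the same LPS dose. No mouse was studied 7 h after saline, so in each 7 h comparison with saline the time after injection differs as well, and every NOS2-/- comparison with saline rests on 1 mouse.

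As background, tissue factor (F3) starts coagulation by binding factor VII, and tissue factor pathway inhibitor (Tfpi) blocks that step. Thrombin acts on cells through the receptor PAR1 (F2r), but once it is bound to thrombomodulin (Thbd) on endothelium it activates protein C instead, a step made faster by the endothelial protein C receptor (Procr), and protein S (Pros1) is the cofactor of activated protein C. Plasmin, which dissolves fibrin, is made from plasminogen by the tissue-type activator (Plat) and by urokinase (Plau), the latter held at the cell surface by its receptor (Plaur). Loss of thrombomodulin and gain of tissue factor are known features of endothelium and of myeloid cells exposed to endotoxin.

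The stretches of promoter with the letters of an AP-1 site are shown because these letters occurred in 3 of the 5 members whose promoter window was used, from a RefSeq table (GRCm38.p6). F3 and Procr rose after LPS, and F2r did not. AP-1 is the Fos and Jun family of transcription factors. The letters TGANTCA were searched on both strands in the 250 bases before each start and were present in 6.75% of all 32851 windows of that length. Each stretch runs 5′ to 3′ on the strand of the gene, with up to 50 bases on either side, and capitals mark the match.
F3 (chr3:121723341-121723458, plus strand): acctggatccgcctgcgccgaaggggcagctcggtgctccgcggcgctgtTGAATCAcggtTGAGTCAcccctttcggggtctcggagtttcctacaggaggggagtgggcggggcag
Procr (chr2:155751013-155751119, plus strand): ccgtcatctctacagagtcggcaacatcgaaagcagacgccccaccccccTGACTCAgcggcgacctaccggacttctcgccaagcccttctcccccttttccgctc
F2r (chr13:95618614-95618716, minus strand): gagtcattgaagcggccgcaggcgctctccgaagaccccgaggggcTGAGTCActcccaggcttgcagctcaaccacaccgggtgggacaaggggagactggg
The F3 window held 2 matches, 4 bases apart, and those of Procr and F2r held 1 each. Measured from the transcript start that each RefSeq window was built on, which for Procr is not the gene start given below, the matches began at base -146 and -135 in F3, -154 in Procr and -204 in F2r. The NF-kB consensus searched had no exact match in the windows of these genes and was present in 7.25% of all windows. Sites that depart from this consensus were not searched for, so their absence was not shown. A match describes letters only, and binding was not measured.

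Array medians lay between 8.46 and 8.55, and no 2 arrays held the same values. The alveolar type 2 cell gene Sftpc stood between 14.81 and 14.88 in wild-type saline lungs, as the tissue label has it. Wild-type LPS 22 h replicate 2 correlated at 0.949 to 0.955 with the other arrays of its group, whereas all other pairs of arrays within a group correlated at about 0.992 or more. The fits of the 9 genes were therefore repeated without replicate 2. Results of the other listed genes and of the markers are given only with every array kept. The single NOS2-/- saline array lay outside the range of the 4 wild-type saline arrays for 47.7% of probe sets and carried high signals of squamous epithelium (Krt4 14.21 against 8.26 to 8.65) and of skeletal muscle (Tnnc2 12.36 against 7.11 to 7.32). The Nos2 probe set read 8.99 to 9.25 in NOS2-/- lungs and 8.19 to 8.80 in wild-type lungs 22 h after LPS. The sources used here do not say where its probes lie relative to the deleted part of the gene, so it does not check the genotype labels.

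In wild-type lungs LPS moved 4 of the 9 genes up at both times, namely Procr, F3, Plat and Plaur, and Thbd down at both times, while F2r was lower by a small margin. At 22 h Plat had risen 9.96-fold, Procr 8.96-fold, F3 4.47-fold and Plaur 4.02-fold over saline, and Thbd had fallen 2.81-fold. At 7 h the fall of Thbd, 8.92-fold, was the greater change, and it stood at rank 5 from the lowest log2 fold change among the 22626 probe sets. With limma and Benjamini-Hochberg adjustment over all probe sets, 7 of 9 genes were called at 22 h, 4 higher and 3 lower, where 32.8% of all probe sets were called (12.8% higher and 20.0% lower). At 7 h 6 of 9 were called, 4 higher and 2 lower, where 32.3% of all probe sets were called (14.4% higher and 17.9% lower). The median size of the log2 fold change, direction aside, was 1.49 for these genes at 22 h and 0.18 for all probe sets, and at 7 h it was 1.40 and 0.16. The genes were chosen with earlier results of these data known and were each read by their brightest probe set. These medians are therefore a description and not a test against all probe sets. Lung tissue was measured in bulk, so fewer cells of a type and less RNA per cell cannot be told apart.

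**Figure D1:**
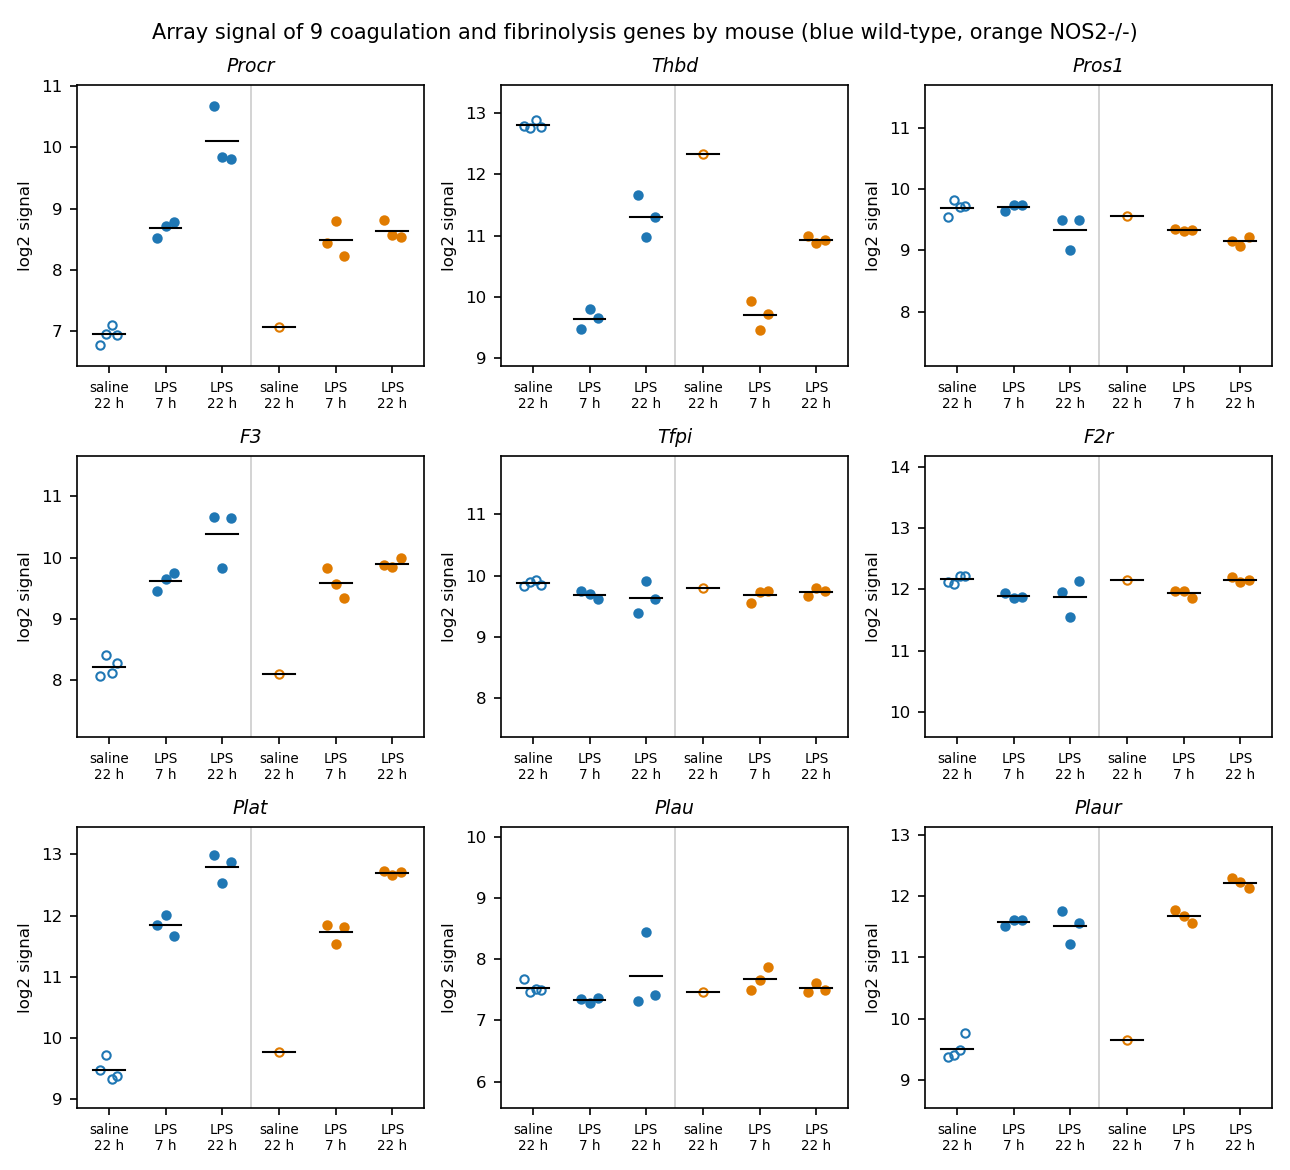
Log2 signal of the 9 genes in each mouse, by genotype, treatment and time, with each panel on its own axis. Open circles are saline and filled circles LPS, blue is wild-type and orange NOS2-/-, and bars are group means. Procr in wild-type mice at 22 h (9.80 to 10.67) stands above all NOS2-/- values at that time (8.54 to 8.81), and Plaur shows the opposite order.

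The cellular arm of the protein C pathway is made of Procr and Thbd. Procr, which presents protein C on the endothelial surface (chromosome 2, 155751125 to 155755478, GRCm38.p6), read 6.78, 6.96, 7.11 and 6.93 in the wild-type saline lungs. It read 8.53, 8.71 and 8.79 at 7 h after LPS, and 10.67, 9.85 and 9.80 at 22 h. The 3 wild-type groups did not overlap, and the signal was higher at the later time. After saline it was dim, at percentile 17.6 of the array, so the folds of Procr start from a low baseline. The means were 6.94 ± 0.13 (SD, n = 4), 8.67 ± 0.13 (SD, n = 3) and 10.11 ± 0.49 (SD, n = 3), and the rise over saline was 1.73 on the log2 scale at 7 h (limma adjusted p = 1.97e-06) and 3.16 at 22 h (SE 0.18, adjusted p = 2.79e-09). From 7 h to 22 h the signal rose by a further 1.43 (SE 0.19, adjusted p = 2.14e-04).

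In NOS2-/- lungs Procr also rose after LPS, and no further rise from 7 h to 22 h was called. The saline mouse read 7.06, within the range of the wild-type saline lungs. The LPS mice read 8.44, 8.80 and 8.23 at 7 h and 8.81, 8.56 and 8.54 at 22 h, so the times overlapped. Their means were 8.49 ± 0.29 (SD, n = 3) and 8.64 ± 0.15 (SD, n = 3), and the difference between the times was 0.15, with a 95% confidence interval from -0.27 to 0.56 (limma adjusted p = 0.794). Ordered by mean, the Procr signal ran from saline in either genotype through NOS2-/- 7 h, NOS2-/- 22 h and wild-type 7 h, 3 neighbours that did not differ beyond their spread, to wild-type 22 h at the top.

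Thbd, the thrombin receptor that turns thrombin towards protein C activation (chromosome 2, 148404471 to 148408188), had a high and even signal in wild-type saline lungs, at 12.78, 12.76, 12.88 and 12.77. It read 9.47, 9.80 and 9.66 at 7 h after LPS and 11.65, 10.98 and 11.30 at 22 h. No value after LPS reached the saline range, and the 22 h lungs stood between the other groups. The log2 fold change was -3.16 at 7 h (SE 0.14, limma adjusted p = 9.64e-11) and -1.49 at 22 h (SE 0.14, adjusted p = 4.81e-07), and the signal rose by 1.67 from 7 h to 22 h (SE 0.15, adjusted p = 5.28e-06). Of the 9 genes, Thbd was the only one called lower than saline and then called higher at 22 h than at 7 h.

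NOS2-/- lungs showed the same sequence for Thbd. The signal was 12.34 in the saline mouse, 9.94, 9.45 and 9.71 at 7 h and 10.99, 10.87 and 10.93 at 22 h. The saline value lay below the wild-type saline range of 12.76 to 12.88, so folds against it start from a lower level. Thbd fell by 2.64 at 7 h (limma adjusted p = 2.28e-07) and by 1.41 at 22 h (adjusted p = 1.03e-04), and rose by 1.23 between the times (adjusted p = 2.50e-04).

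Most endothelial markers fell after LPS, as Thbd did. Of 15 endothelial markers measured, 11 fell and 2 rose in wild-type lungs at each time, and their mean log2 signal was 11.78 to 11.89 in saline, 10.34 to 10.43 at 7 h and 10.54 to 10.84 at 22 h. From 7 h to 22 h, 7 rose, 2 fell and 6 were not called in wild-type lungs. In NOS2-/- lungs 3 of these markers rose, 1 fell and 11 were not called between the times. Their part in the change of Thbd was not tested. The gene whose profile over the 17 arrays was most like that of Thbd was Ptprb, the endothelial receptor phosphatase (Pearson r = 0.979), at 12.09 to 12.33 in wild-type saline lungs, 9.15 to 9.26 at 7 h and 10.38 to 11.14 at 22 h. Procr rose while 11 of these 15 markers fell.

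Pros1, which encodes the protein S cofactor (chromosome 16, 62854307 to 62929346), changed little and late. Wild-type lungs read 9.55, 9.81, 9.70 and 9.72 after saline, 9.64, 9.73 and 9.73 at 7 h, and 9.50, 8.997 and 9.50 at 22 h after LPS. All 3 lungs at 22 h were below all others, with replicate 2 the lowest. The log2 difference from saline was 0.01 at 7 h (limma adjusted p = 0.978) and -0.37 at 22 h (SE 0.10, adjusted p = 0.0133). The call at 22 h was lost with array weights (-0.21, adjusted p = 0.0961) and when only these groups were fitted (adjusted p = 0.115). The fall from 7 h to 22 h, 0.37 on the log2 scale with an adjusted p of 0.0461, was not called when replicate 2 at 22 h was left out (-0.20, adjusted p = 0.0797), nor without wild-type LPS 7 h replicate 1, 2 or 3 (adjusted p = 0.0816, 0.140 and 0.137).

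Pros1 in NOS2-/- lungs read 9.55 after saline, 9.35, 9.32 and 9.34 at 7 h and 9.16, 9.06 and 9.22 at 22 h. All 6 LPS values lay below the saline value and below the wild-type saline range. The log2 difference of -0.41 at 22 h from the single saline mouse was not called (limma adjusted p = 0.0721), and it was called when wild-type LPS 22 h replicate 2, which takes no part in it beyond the shared spread, was left out (adjusted p = 0.00213). Against the 4 wild-type saline arrays, the log2 difference was -0.36 at 7 h (adjusted p = 0.0129) and -0.55 at 22 h (adjusted p = 5.32e-04).

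F3, the initiator of coagulation (chromosome 3, 121723537 to 121735052), read 8.07, 8.40, 8.12 and 8.28 in wild-type saline lungs. At 7 h it read 9.45, 9.66 and 9.74, and at 22 h 10.66, 9.83 and 10.65. The 3 groups did not overlap, and replicate 2 at 22 h stood close to the 7 h lungs. F3 rose by 1.40 at 7 h (limma adjusted p = 1.13e-05) and by 2.16 at 22 h (SE 0.17, adjusted p = 1.04e-07). The further rise of 0.76 from 7 h to 22 h (SE 0.18, adjusted p = 0.0144) was not called without wild-type LPS 7 h replicate 1 (0.68, adjusted p = 0.0697) or when only these 2 groups were fitted (adjusted p = 0.207).

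NOS2-/- lungs gave an F3 signal of 8.10 after saline, 9.83, 9.57 and 9.34 at 7 h and 9.87, 9.85 and 9.99 at 22 h. All LPS values were above all saline values of either genotype. The rise was 1.49 at 7 h (limma adjusted p = 6.05e-04) and 1.81 at 22 h (adjusted p = 8.68e-05), and the step of 0.32 between the times was not called (adjusted p = 0.380). The genes most like F3 over the 17 arrays were Orm1, an acute-phase protein (Pearson r = 0.983), and the fibrinogen chains Fgg and Fga (r = 0.976 each).

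Tfpi, the inhibitor of the tissue factor complex (chromosome 2, 84432855 to 84476775), was read by 3 probe sets that did not go together. The brightest read 9.84 to 9.93 in wild-type saline lungs, 9.62 to 9.75 at 7 h and 9.40, 9.91 and 9.62 at 22 h, and its log2 difference at 22 h, -0.24, was not called (limma adjusted p = 0.0702). Without replicate 2 at 22 h it was -0.37 and called (adjusted p = 6.24e-04). The other probe sets, in order of brightness, were called lower at 22 h, by log2 differences of -0.53 (adjusted p = 0.0273) and -0.48 (adjusted p = 0.00242). Over the 17 arrays these correlated at 0.85 with each other and at 0.07 and 0.35 with the brightest. At 7 h the brightest probe set differed from saline by -0.19 (adjusted p = 0.166), which was called without wild-type LPS 22 h replicate 2 (adjusted p = 0.0301). Tfpi in NOS2-/- lungs read 9.80 after saline, 9.56 to 9.75 at 7 h and 9.66 to 9.80 at 22 h by the brightest probe set, with no call. Of the other probe sets, the brighter was called lower at 7 h (-0.76, adjusted p = 0.0486) and the dimmer at 22 h (-0.48, adjusted p = 0.0402).

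F2r, the thrombin receptor PAR1 (chromosome 13, 95601780 to 95618466), kept a high signal throughout. Its brightest probe set read 12.12, 12.09, 12.22 and 12.22 in wild-type saline lungs, 11.93, 11.85 and 11.87 at 7 h and 11.95, 11.55 and 12.13 at 22 h. The 7 h lungs were all below the saline lungs, whereas at 22 h replicate 3 overlapped them. The log2 difference was -0.28 at both times (limma adjusted p = 0.0492 at 7 h and 0.0434 at 22 h). The call at 22 h was lost without wild-type LPS 22 h replicate 1 (adjusted p = 0.0502) or replicate 2 (-0.12, adjusted p = 0.178), and the call at 7 h without any 1 of the 3 LPS mice (adjusted p 0.0801 to 0.138). Both calls were lost without any 1 of the 4 saline mice (adjusted p 0.0520 to 0.106). The second probe set gave -0.36 at 7 h (adjusted p = 0.0158) and -0.35 at 22 h (adjusted p = 0.0184). F2r in NOS2-/- lungs read 12.15 after saline, 11.86 to 11.97 at 7 h and 12.12 to 12.20 at 22 h, and no difference from saline was called.

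Plat, the tissue-type plasminogen activator (chromosome 8, 22757722 to 22782848), had the highest fold of the 9 genes at 22 h. Wild-type lungs read 9.48, 9.73, 9.33 and 9.38 after saline, 11.85, 12.01 and 11.67 at 7 h, and 12.98, 12.53 and 12.87 at 22 h. The 3 groups were far apart and did not overlap. The rise was 2.37 at 7 h (limma adjusted p = 6.82e-10) and 3.32 at 22 h (SE 0.12, adjusted p = 2.87e-11), with a step of 0.95 between the times (SE 0.13, adjusted p = 2.45e-04). At 22 h it stood at rank 36 from the highest log2 fold change among the 22626 probe sets.

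Plat in NOS2-/- lungs followed the same course, from 9.78 after saline, which was above the wild-type saline range, to 11.85, 11.54 and 11.82 at 7 h and 12.72, 12.67 and 12.72 at 22 h. It rose by 1.96 at 7 h (limma adjusted p = 1.58e-06), by 2.93 at 22 h (adjusted p = 2.50e-08) and by 0.97 between the times (adjusted p = 5.51e-04). The genotypes differed at 22 h by -0.09, with a 95% confidence interval from -0.37 to 0.19.

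Plaur, which tethers urokinase to the cell surface (chromosome 7, 24460937 to 24475970), was at its wild-type height by 7 h. It read 9.38, 9.40, 9.49 and 9.76 after saline, 11.51, 11.61 and 11.62 at 7 h, and 11.75, 11.23 and 11.57 at 22 h. The LPS times overlapped each other and neither overlapped saline. Plaur rose by 2.07 at 7 h (limma adjusted p = 1.52e-09) and by 2.01 at 22 h (SE 0.12, adjusted p = 2.86e-09), and the difference between the times, -0.07, was not called (adjusted p = 0.745).

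In NOS2-/- lungs Plaur was higher at 22 h than at 7 h. The values were 9.66 after saline, 11.78, 11.68 and 11.57 at 7 h and 12.30, 12.23 and 12.13 at 22 h. The times did not overlap, and the later one was higher by 0.54 (SE 0.12, limma adjusted p = 0.0139). This call was lost without NOS2-/- LPS 7 h replicate 3 (0.49, adjusted p = 0.0725) and without NOS2-/- LPS 22 h replicate 1 (0.50, adjusted p = 0.0643) or 2 (adjusted p = 0.0532). The difference between the genotypes in this step, 0.61, was not called (adjusted p = 0.0737).

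Neutrophil genes rose after LPS as Plaur did. All 9 neutrophil markers measured rose in wild-type lungs at each time, and their mean log2 signal was 9.15 to 9.49 after saline, 11.53 to 11.70 at 7 h and 11.64 to 11.83 at 22 h. The same mean in NOS2-/- lungs was 9.57 after saline, 11.21 to 11.50 at 7 h and 11.87 to 11.91 at 22 h. Of 9 monocyte and macrophage markers, 6 rose and 2 fell in wild-type lungs at each time. Their mean log2 signal in NOS2-/- lungs was 9.70 after saline, 10.36 to 10.58 at 7 h and 10.33 to 10.40 at 22 h. Between the genotypes at 22 h, 2 neutrophil markers were higher in NOS2-/- lungs, 2 were lower and 5 were not called. The part of either list in the rise of Plaur was not tested. The gene most like Plaur over the 17 arrays was Rnf149 (Pearson r = 0.994), followed by Ackr3, a chemokine receptor (r = 0.994).

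Plau, the urokinase gene itself (chromosome 14, 20836662 to 20843388), stayed dim. Its brighter probe set read 7.67, 7.46, 7.52 and 7.49 in wild-type saline lungs, 7.34, 7.28 and 7.37 at 7 h and 7.32, 8.45 and 7.42 at 22 h. The value of 8.45 belonged to replicate 2, the array that stands apart, and the other lungs of that group were below all saline lungs. The log2 difference was -0.21 at 7 h and 0.19 at 22 h (limma adjusted p = 0.488 for each), and at 7 h it was called without that array (adjusted p = 0.0409). The dimmer Plau probe set differed from saline by 0.0008 at 7 h (adjusted p = 0.995) and by 0.09 at 22 h (adjusted p = 0.373). Plau in NOS2-/- lungs read 7.46 after saline, 7.49 to 7.87 at 7 h and 7.47 to 7.61 at 22 h, and neither difference from saline was called.

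**Figure D2:**
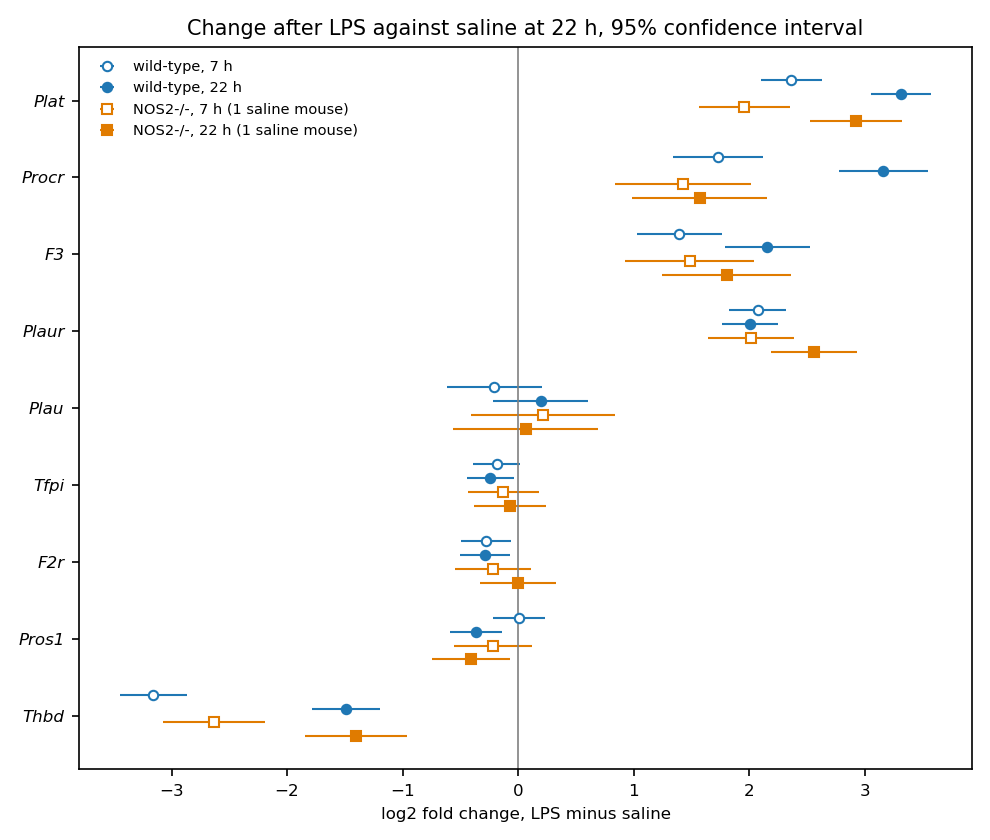
Log2 fold change after LPS against the saline mice of the same genotype, with the 95% confidence interval of the limma fit, for each gene, genotype and time. Blue circles are wild-type, orange squares NOS2-/- (1 saline mouse), open symbols 7 h and filled symbols 22 h. The 3.16 of Procr in wild-type mice at 22 h stands apart from its other 3 values (1.43 to 1.73), and the fall of Thbd is larger at 7 h in both genotypes.

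Against their single saline mouse, NOS2-/- lungs had 5 of 9 genes called at 22 h, where 27.6% of all probe sets were called (11.6% higher and 16.0% lower), and the same 5 at 7 h, where 22.5% were called (8.78% higher and 13.7% lower). These were Procr, F3, Plat and Plaur, higher, and Thbd, lower. Procr rose by 1.43 at 7 h (limma adjusted p = 0.00127) and by 1.57 at 22 h (SE 0.27, adjusted p = 4.62e-04). Plaur rose by 2.02 at 7 h (adjusted p = 6.31e-07) and by 2.56 at 22 h (adjusted p = 5.25e-08).

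From 7 h to 22 h, 5 of 9 genes were called in wild-type lungs, where 10.8% of all probe sets were called (3.15% higher and 7.68% lower). Procr, Thbd, F3 and Plat were higher and Pros1 was lower at 22 h. In NOS2-/- lungs 3 of 9 were called, all higher, where 7.81% of all probe sets were called (4.65% higher), and these were Thbd, Plat and Plaur.

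To compare the genotypes under endotoxin, the LPS mice were set against each other, with 3 mice of each genotype at each time. At 22 h Procr was 2.77-fold lower in NOS2-/- lungs, at 8.54 to 8.81 against 9.80 to 10.67 (rank 11 from the lowest log2 difference among 22626 probe sets). The log2 difference was -1.47, with a 95% confidence interval from -1.88 to -1.06 (limma adjusted p = 1.37e-04). Plaur was 1.63-fold higher in NOS2-/- lungs, at 12.13 to 12.30 against 11.23 to 11.75, a log2 difference of 0.70 with an interval from 0.44 to 0.97 (adjusted p = 0.00126). When only these 2 groups were fitted, Plaur was not called (adjusted p = 0.0565). Thus 2 of 9 genes were called at 22 h, 1 higher and 1 lower, where 16.4% of all probe sets were called (9.63% higher and 6.81% lower).

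At 7 h none of the 9 genes was called between the genotypes by limma, where 2.01% of all probe sets were called. Pros1 alone of the 9 had an unadjusted p under 0.05 (-0.37, adjusted p = 0.0853), as did 5078 of all 22626 probe sets. Procr differed by -0.18 at that time, with an interval from -0.60 to 0.23. Without wild-type LPS 22 h replicate 2, which enters this comparison only through the shared spread, Pros1 and Plau were called at 7 h (adjusted p = 0.00209 and 0.00966), where 26.9% of all probe sets were called.

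Leaving out the same array changed the comparison at 22 h more. Then 6 of 9 genes were called, where 26.6% of all probe sets were called. Beside Procr and Plaur, these were Thbd (log2 difference -0.54, limma adjusted p = 0.00350), F3 (-0.75, adjusted p = 2.37e-04), Pros1 (-0.35, adjusted p = 0.00210) and Tfpi (0.23, adjusted p = 0.0422). With the array kept, Thbd differed by -0.38 (adjusted p = 0.0962), F3 by -0.48 (adjusted p = 0.0968) and Pros1 by -0.18 (adjusted p = 0.306). F2r, which differed by 0.28 with every array kept (adjusted p = 0.101), was called without wild-type LPS 22 h replicate 3 (0.41, adjusted p = 0.0108).

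**Figure D3:**
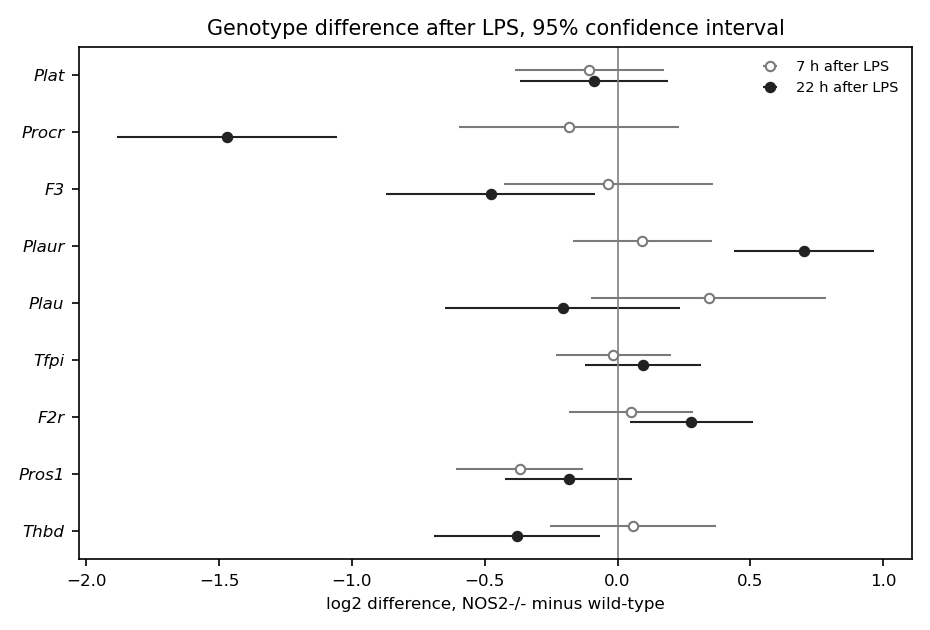
Log2 difference between NOS2-/- and wild-type lungs after LPS, with the 95% confidence interval of the limma fit, at 7 h (open grey) and 22 h (filled black). At 22 h Procr lies at -1.47 and Plaur at 0.70, while at 7 h the intervals of both genes include 0.

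Procr was also the 1 gene of the 9 for which the change itself differed between the genotypes. The step from 7 h to 22 h was smaller by 1.29 on the log2 scale in NOS2-/- lungs (a difference of -1.29, SE 0.27, 95% confidence interval from -1.87 to -0.70, limma adjusted p = 0.0209), where 3.04% of all probe sets were called. The adjusted p passed 0.05 without wild-type LPS 7 h replicate 1, 2 or 3 (0.0557, 0.0531 and 0.0501) and without NOS2-/- LPS 22 h replicate 2 or 3 (0.0587 and 0.0574), with differences between -1.34 and -1.21. Without wild-type LPS 22 h replicate 2, Thbd (-0.60, adjusted p = 0.0368) and F3 (-0.72, adjusted p = 0.0133) were called too, and without wild-type LPS 22 h replicate 1 Plaur was (0.73, adjusted p = 0.0247). The response to LPS at 22 h against saline differed for Procr by -1.59 (SE 0.33, interval from -2.29 to -0.89, adjusted p = 0.0113), where 4.70% of all probe sets were called. The comparisons share the wild-type LPS 22 h mice and are not independent of each other.

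At 22 h 5 of the 9 monocyte and macrophage markers were lower in NOS2-/- lungs and none was higher, with a mean log2 signal of 10.33 to 10.40 against 10.48 to 10.91 in wild-type lungs. At 7 h, when Procr was not called between the genotypes, this mean was already 10.36 to 10.58 against 10.70 to 10.82. At that time 1 of the 9 was called lower and none higher. Of the 15 endothelial markers, 5 were lower and 2 higher at 22 h. The part of either list in the lower Procr signal was not tested. The genes most like Procr over the 17 arrays were Gpr35 (Pearson r = 0.979), Apod, a lipid-binding lipocalin (r = 0.974), and Itga5, the alpha 5 integrin chain (r = 0.968). These correlations describe 17 arrays that share group means.

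Exact two-sided permutation tests of the wild-type means, which use no shared spread, reached 0.0286, the smallest p that 3 against 4 mice allow, for 6 of the 9 genes at 22 h (all but Tfpi at 0.114, F2r at 0.0857, and Plau) and for 8 at 7 h (all but Pros1, at 0.886). They were run on the 9 genes only, so the share of all probe sets that reach this p is not known. The counts are therefore no result about these genes. Tfpi and Plau, among the 8 at 7 h, were not called by limma (adjusted p = 0.166 and 0.488). At 3 against 3, the smallest p is 0.1, so these exact tests cannot pass 0.05 between genotypes or times.

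Beyond the 9 genes, a list of 42 other coagulation and fibrinolysis genes was followed, of which 37 were measured. At 22 h in wild-type lungs 5 of the 37 rose, 5 fell and 27 were not called, where 32.8% of all probe sets were called. At 7 h 8 rose, 4 fell and 25 were not called, where 32.3% of all probe sets were called. Both shares of the list were near or below those of all probe sets, so the genes named below are single genes and not a result about the list. The median log2 fold change of the list was 0.06 at 22 h, against 0.00 for all probe sets.

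Of the fibrinogen chains, Fgg and Fga rose and Fgb was not called (0.12 at 22 h, limma adjusted p = 0.340). The gamma chain Fgg read 6.86 to 7.41 after saline, 9.02 to 9.21 at 7 h and 9.03 to 9.77 at 22 h in wild-type lungs (a log2 fold change of 2.39 at 22 h, SE 0.18, adjusted p = 4.36e-08). The alpha chain Fga rose by 1.97 (adjusted p = 2.39e-08) and factor X, F10, by 2.08 (adjusted p = 6.96e-08). The coagulation factor genes F2, F5, F7, F8, F9, F11, F12, F13a1 and F13b were not called at 22 h. Thrombospondin, Thbs1, rose by 1.17 (adjusted p = 8.99e-06) and kininogen, Kng1, by 0.22 (adjusted p = 0.0178). Fibrinogen is made chiefly by liver, and the mean log2 signal of the 6 liver markers measured was 8.84 to 8.99 after saline and 8.96 to 9.46 at 22 h, with albumin (Alb) at 7.81 to 7.93 and 7.78 to 8.21. Their part in the fibrinogen signal was not tested.

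The fall was largest for Vwf, the endothelial factor that binds platelets, at 11.36 to 11.59 after saline, 10.06 to 10.31 at 7 h and 8.49 to 9.31 at 22 h (-2.50, SE 0.17, limma adjusted p = 1.35e-08). The vitamin K enzymes Vkorc1 and Ggcx, which serve the gamma-carboxylation of protein S among others, fell by 1.51 (adjusted p = 5.48e-09) and by 0.70 (adjusted p = 1.64e-05) at 22 h. Gas6, a vitamin K-dependent relative of protein S, fell by 1.52 (adjusted p = 1.01e-07), and S100a10, a plasminogen-binding protein, by 0.26 (adjusted p = 0.0313).

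Between the genotypes 22 h after LPS, 5 of the 37 genes were higher in NOS2-/- lungs and 3 were lower, where 16.4% of all probe sets were called (9.63% higher and 6.81% lower). Vwf, at 10.25 to 10.57 in NOS2-/- and 8.49 to 9.31 in wild-type lungs, was higher by 1.41 (SE 0.18, limma adjusted p = 9.39e-05), and F10 was lower by a log2 difference of -0.78 (adjusted p = 0.00569). Platelets carry Vwf as well, and the mean log2 signal of the 7 platelet markers was 9.74 to 9.83 in NOS2-/- and 9.17 to 9.41 in wild-type lungs at 22 h, with 3 of 7 called higher. Their part in the Vwf signal was not tested. Vwf was also the 1 gene of the list whose step from 7 h to 22 h differed between the genotypes, by 1.21 (SE 0.25, adjusted p = 0.0187), opposite in sign to Procr. For that difference 3.04% of all probe sets were called. The genotype difference of Vwf in the LPS response at 22 h against saline, 1.09, was not called and rests on 1 NOS2-/- saline mouse. That mouse read 11.80, above the wild-type saline range of 11.36 to 11.59. Its platelet marker mean, 9.74, was also above that of wild-type saline lungs (9.22 to 9.31). None of these Vwf differences is given without wild-type LPS 22 h replicate 2, which held the lowest wild-type Vwf value at 22 h (8.49). At 7 h none of the 37 was called between the genotypes by limma.

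**Figure D4:**
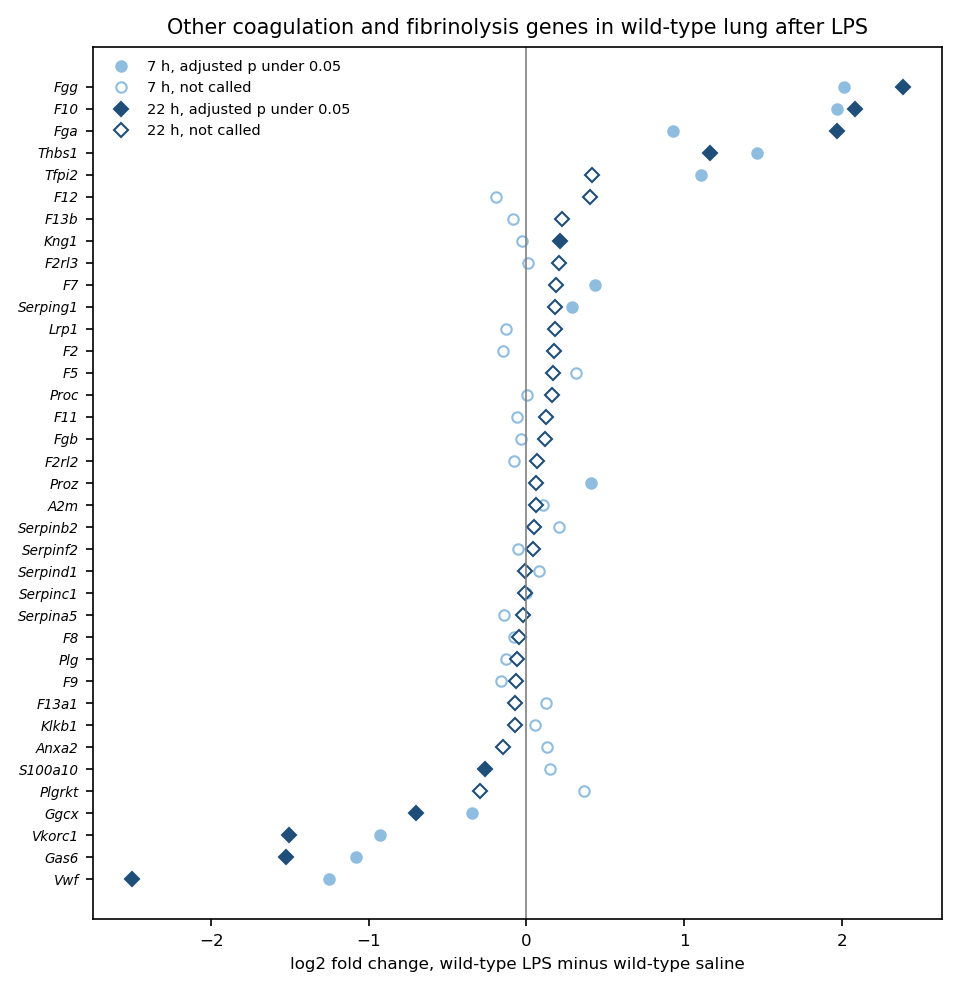
Log2 fold change in wild-type lungs after LPS against saline for the 37 other coagulation and fibrinolysis genes measured, at 7 h (circles) and 22 h (diamonds), filled where the limma adjusted p was under 0.05. Fgg, F10 and Fga stand at the top with 22 h values of 2.39, 2.08 and 1.97, and Vwf at the bottom with -2.50.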

How the data were processed

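Fragmented cRNA of whole lungs was hybridised to Affymetrix MOE430A arrays. The deposited values are log2 expression values from the Bioconductor package affy, which the authors name for background correction, normalization and summary. Neither its version nor its options are stated in the sources used here, and no further scaling was applied. The arrays hold 22690 probe sets, and 64 controls were left out. Symbols came from the array's probe table, and a gene was represented by its probe set with the highest mean over the 17 arrays, with the others also given. The suffixes s and a mark probe sets shared by several transcripts. Suffix s marked the only probe set of Procr and both of F2r, and a the brightest of Tfpi and that of Plaur. No second probe set read Procr.

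All arrays were fitted in limma 3.58.1 (R 4.3.3) with 1 mean per group and default empirical Bayes moderation (prior degrees of freedom 3.75), since limma is the test the study's methods name. P values were adjusted over 22626 probe sets (Benjamini-Hochberg) and called under 0.05. The single NOS2-/- saline mouse was taken to vary like the other groups. Interaction contrasts compared changes between genotypes. Nothing says that mice of a group shared a litter or day, and the number of mice limits the precision.

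The members and lists were chosen with earlier results of these data known. All 9 genes are named, with up to 12 list genes called in a wild-type LPS or genotype comparison and, for each gene, those most like it over the 17 arrays. The promoter window of 1 of the 9 genes is not reported here. The fit was tested on simulated data. Alternatives were quantile and median scaling, a filter on dim probe sets, array weights, trended and robust moderation, fits of only the groups compared, a replicate block, another probe set, other saline controls, a stricter threshold and leaving out each array.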

Additional observations from a re-analysis of the deposited data

Results flagged for a closer look

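The change of Procr from 7 h to 22 h after LPS differed between NOS2-/- and wild-type lungs by -1.29 on the log2 scale (limma adjusted p = 0.0209). The Procr signal rose between these times in wild-type mice, with 3 of 3 values at 22 h above 3 of 3 at 7 h, and the times overlapped in NOS2-/- mice. The response of Procr to LPS at 22 h against saline differed between the genotypes by -1.59 (adjusted p = 0.0113), with 1 saline mouse in the NOS2-/- group. Both stood out by a test of the difference between the genotypes.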

How the results depend on the processing

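Of 1466 single-gene values recomputed under other settings, 1368 kept their side of the threshold, 49 lost and 49 gained a call. No value that was called changed sign. Of the 1368, 61 that were not called changed sign. Part of this tally was fixed in advance. A stricter threshold can only lose calls, and another probe set changes nothing for a gene with 1. The stricter threshold, other moderation and fits of only the groups compared also leave the log2 difference as it was. The tally therefore does not measure how stable the results are. The causes of the changes below were not tested, and the calls over all probe sets under the same settings are given further below. In NOS2-/- against wild-type lungs at 22 h, 2 of the 9 genes were called, and 4 after quantile normalization, 5 with array weights (whose estimation stopped before it converged) and 1 when only the groups compared were fitted. At 7 h the count of 0 became 3 with array weights and 2 with only the groups compared. From 7 h to 22 h the wild-type count of 5 became 3 with only the groups compared and 3 at an adjusted p under 0.01, and the NOS2-/- count of 3 became 6 with array weights. For the genotype difference in the change from 7 h to 22 h, the count of 1 became 3 with array weights and 0 with only the groups compared, with the replicate block and at an adjusted p under 0.01. For that in the LPS response at 22 h, the count of 1 became 2 with array weights, 0 with the replicate block and at an adjusted p under 0.01, and 2 with wild-type saline as the control of both genotypes.

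Leaving out each array in turn gave 6 to 7 genes called for wild-type LPS 22 h against saline, 5 to 8 for 7 h, 5 to 6 for NOS2-/- at 22 h and 5 to 5 at 7 h. It gave 3 to 5 from 7 h to 22 h in wild-type and 2 to 5 in NOS2-/- lungs, 0 to 2 between genotypes at 7 h and 2 to 6 at 22 h, 0 to 3 for the difference in the change from 7 h to 22 h and 1 to 2 for that in the LPS response. Wild-type calls against saline over all 22626 probe sets were then 6666 to 9319 at 22 h and 5962 to 10423 at 7 h. In NOS2-/- lungs they were 5339 to 9332 at 22 h and 4254 to 8627 at 7 h. From 7 h to 22 h they were 1451 to 4098 in wild-type and 887 to 4493 in NOS2-/- lungs. Between genotypes they were 23 to 6092 at 7 h and 2323 to 6020 at 22 h. For the difference in the change they were 243 to 1628, and for that in the LPS response 699 to 3441. Leaving out wild-type LPS 22 h replicate 2 from comparisons that do not hold its group was chosen after seeing the data.

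Over all probe sets, the calls between genotypes at 7 h went from 454 to 10562 with array weights, 5766 with only the groups compared and 23 to 6092 with 1 array left out. At 22 h they went from 3720 to 918 with only the groups compared, 4373 after quantile normalization and 5152 with array weights. Calls from 7 h to 22 h went from 2451 to 467 in wild-type lungs with only the groups compared and from 1766 to 6821 in NOS2-/- lungs with array weights, and those of the difference in that change from 687 to 2011 with array weights, 370 with only the groups compared and 389 with the block. For the difference in the LPS response, 1064 calls became 3950 with array weights and 532 with the block. They became 3720 with wild-type saline as the control of both genotypes. At an adjusted p under 0.01, 1257 probe sets were called for wild-type 22 h against 7 h. That threshold left 170 for the genotype difference in the change and 413 for that in the LPS response. After quantile normalization the share of higher calls went from 29.1% to 42.4% for wild-type 22 h against 7 h, and from 82.1% to 64.6% for the difference in that change.

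Same-numbered arrays did not consistently deviate together (correlations from -0.38 to 0.36, with 4 of 30 pairs over 0.1). They were not set against differently numbered arrays, so this check cannot decide whether the numbers pair the mice. With the replicate block Procr kept its difference of -1.29 in the change from 7 h to 22 h at an adjusted p of 0.0540, and its difference in the LPS response was -1.51 (adjusted p = 0.0624). Plau fell under the filter on dim probe sets, which uses the mean over all arrays. Procr, dimmer than Plau in wild-type saline lungs, passed it through its LPS groups.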

Other observations

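Tfpi2, an inhibitor of plasmin and of the tissue factor complex, was higher at 7 h than at any other time in both genotypes. In wild-type lungs it read 7.14 to 7.33 after saline, 8.16 to 8.47 at 7 h and 7.31 to 7.90 at 22 h. In NOS2-/- lungs it read 7.16 after saline, 8.58 to 9.37 at 7 h and 7.94 to 8.12 at 22 h. It was lower at 22 h than at 7 h by log2 differences of -0.69 in wild-type (limma adjusted p = 0.0187) and -1.02 in NOS2-/- lungs (adjusted p = 0.00233), and the genotypes were not called different at 7 h (0.67, adjusted p = 0.0583). F7, the partner of tissue factor, rose by 0.43 in wild-type lungs at 7 h (adjusted p = 2.07e-04), at 9.78 to 9.81 against 9.29 to 9.41 after saline.

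Over the 17 arrays and among the 9 genes, F3 and Plat correlated at 0.96, Plat and Plaur at 0.94, Procr and F3 at 0.94, and Thbd and Plaur at -0.79 (Pearson). These values describe arrays that share group means.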
